A study of Mus musculus with 30 samples.

Results

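The Hox, Cdx, Meis and Pbx genes were followed across a mouse embryonic stem cell differentiation series with mutants of Polycomb cofactors. Members were chosen by gene symbol alone, and 48 of the 20563 rows of the expression table matched: 38 Hox genes, 3 Cdx genes, 3 Meis genes and 4 Pbx genes. Of the Hox genes, 12 belong to paralogue groups 1 to 4 (called anterior here), 10 to groups 5 to 8 (central) and 16 to groups 9 to 13 (posterior). Hoxa6, which the rule would also take, was not analysed here. Of the 48 members, 23 reached a normalised value of at least 10 in at least 2 of the 30 libraries and were tested, beside 15712 of the 20563 genes.

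Total RNA depleted of ribosomal RNA was sequenced from 5 embryonic stem cell lines. A wild type line, called Pali_WT in the sample titles, was set beside a line lacking Pali1 (Pali1-/-) and a double knockout lacking Pali1 and Pali2 (Pali1-/-, Pali2-/-). A second wild type, C129_WT, was set beside a line homozygous for an Aebp2 gene trap (Aebp2gt/gt). This second pairing follows the order in which the series design names the lines. Each line was sampled on day 0 as stem cells kept with leukemia inhibitory factor on gelatin, and on days 4 and 8 as embryoid bodies, which are floating cell aggregates that differentiate without that factor. Each of the 15 groups had 2 libraries, and the sources used here do not give whether they came from separate clones, so p-values measure the spread between these libraries.

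Hox genes encode homeodomain transcription factors that give body segments their identity, and they lie in 4 clusters in which gene order follows the order of expression along the axis. Cdx proteins activate Hox genes in the caudal embryo. Pbx and Meis proteins are homeodomain partners that bind DNA together with Hox proteins. In stem cells the Hox clusters are classic targets of Polycomb repressive complex 2, a histone H3 methyltransferase found at CG-rich promoters. Aebp2 and the Pali proteins, products of the Lcor and Lcorl genes, are alternative cofactors of that complex.

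The gene trap was visible at Aebp2 itself, which lay between 17.1 and 66.4 in the 6 trap libraries and between 1232 and 2784 in the other 24. Lcor (41.4 to 133) and Lcorl (294 to 858) overlapped between the trap libraries and the other 24. The Pali knockouts were not set against their wild type for these genes, and values over a whole gene do not test the deleted part. Estimated depth was 13198294 to 28151935 reads per library, and 1 read was worth 0.651 to 1.27 units of normalised value. A value under 3 therefore rests on a few reads at most, and several Hox values below are of that size. The values were not scaled to gene length, so levels were compared between libraries of 1 gene and never between genes. For 2 libraries the description field names a culture state other than the title does: replicate 1 of the double knockout on day 0 and replicate 1 on day 4. Titles and growth protocols were followed, and each call below that ended without one of them is given with its adjusted p. The protocol was stranded, but the sources used here do not give whether counting used strand, so RNA from Hox genes and their antisense neighbours may be mixed.

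A long block of chromosome 6 that holds the HoxA cluster differed between lines. The cluster itself lies at chromosome 6, 52155590 to 52260880 (GRCm38, the build the submitters name as mm10). Among the 94 tested genes within 10 Mb of its centre, members left out, the median log2 fold change of the Pali1 knockout against its wild type was -0.81 on day 0, -0.63 on day 4 and -0.29 on day 8. In the double knockout the same medians were 0.03, 0.12 and 0.20. In the Aebp2 gene trap against C129 wild type they were 0.71, 0.70 and 0.25. The C129 wild type lay below the Pali wild type there on day 0, with a median of -0.59. Each library was also read over 94 genes from 40 to 80 Mb, as the median log2 level relative to each gene's median. In the Pali1 knockout this was -0.75 and -0.64 on day 0, -0.70 and -0.59 on day 4, and -0.63 and -0.63 on day 8. That line thus stayed low on day 8. Pali wild type libraries lay between 0.07 and 0.19 and gene trap libraries between 0.08 and 0.20. C129 wild type libraries stood apart on day 4 (-0.72 and -0.37) and on day 8 (-0.49 and -0.08).

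Skap2 and Cbx3 near HoxA showed the same pattern, but not every neighbour did. Evx1, a low homeobox gene beside the cluster, went the other way on day 8, with values given further below. Skap2, an adaptor protein gene beside the cluster, had values of 1349 and 1547 in Pali wild type day 0, 518 and 495 in the Pali1 knockout, 1148 and 1512 in the double knockout, 574 and 689 in C129 wild type, and 962 and 1126 in the gene trap. The Pali1 knockout and the C129 wild type were the low lines, and neither overlapped its partner. Cbx3, which encodes heterochromatin protein 1 gamma, was lower in the Pali1 knockout on every day, by 1.03 ± 0.17 (SE) on the log2 scale on day 0 (adjusted p = 0.0015). In the gene trap Cbx3 was higher on day 0, by 1.16 ± 0.17 (adjusted p = 0.000232). Of the 230 bins of 10 Mb with at least 20 tested genes over the whole genome, the bin from 50 to 60 Mb of chromosome 6 had the lowest median of all in the Pali1 knockout on day 0 and again on day 8, at -0.91 and -0.78. Around the HoxB, HoxC and HoxD clusters, the 10 Mb medians stayed between -0.14 and 0.13 in every comparison of a mutant with its wild type. What lies behind the block, and its part in the HoxA values below, was not tested.

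**Figure D1:**
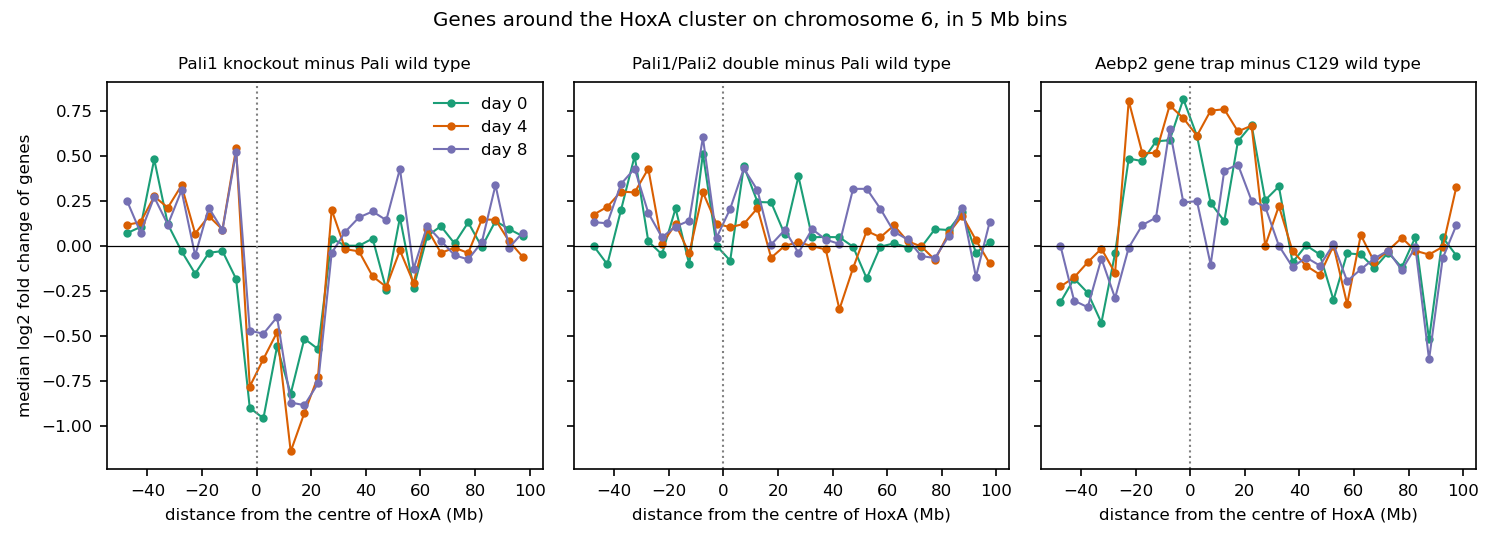
Median log2 fold change (vertical axis) of tested genes in 5 Mb bins along chromosome 6, by distance in Mb from the centre of the HoxA cluster (dotted line), for the 3 mutants against their wild types and 3 days (colours). The Pali1 knockout dips around and beyond HoxA on all 3 days, the double knockout does not, and the gene trap lies above 0 there on days 0 and 4.

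Upstream sequences are shown for 6 members whose RNA carried the results below: Hoxa2, Hoxb1, Meis2 and Cdx2, which were highest on day 8 of differentiation in 1 or more lines, and Hoxd8 and Hoxd13, which were highest in C129 wild type stem cells. Each run is the 250 bases before the RefSeq start (GRCm38.p6), 5′ to 3′ on the gene's strand, with each CG dinucleotide, the site of DNA methylation and a mark of Polycomb target promoters, in capitals. The windows are Hoxa2 at chr6:52164832-52165081 (minus strand), Hoxb1 at chr11:96365508-96365757 (plus), Meis2 at chr2:116064620-116064869 (minus), Cdx2 at chr5:147307250-147307499 (minus), Hoxd8 at chr2:74704365-74704614 (plus) and Hoxd13 at chr2:74667975-74668224 (plus). For Hoxd13 the bases just after the RefSeq start were not found in GENCODE M21 transcripts, where the gene begins at 74668310.
Hoxa2: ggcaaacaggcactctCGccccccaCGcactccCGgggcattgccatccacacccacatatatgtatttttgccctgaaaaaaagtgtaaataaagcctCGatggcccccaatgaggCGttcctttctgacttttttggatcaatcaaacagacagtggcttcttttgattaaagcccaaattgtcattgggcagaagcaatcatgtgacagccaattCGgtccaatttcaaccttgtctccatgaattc
Hoxb1: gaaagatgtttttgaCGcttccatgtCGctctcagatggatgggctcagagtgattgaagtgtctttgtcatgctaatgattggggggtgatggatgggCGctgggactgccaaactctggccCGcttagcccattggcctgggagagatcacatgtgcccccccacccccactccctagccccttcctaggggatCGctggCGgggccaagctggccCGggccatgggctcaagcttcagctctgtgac
Meis2: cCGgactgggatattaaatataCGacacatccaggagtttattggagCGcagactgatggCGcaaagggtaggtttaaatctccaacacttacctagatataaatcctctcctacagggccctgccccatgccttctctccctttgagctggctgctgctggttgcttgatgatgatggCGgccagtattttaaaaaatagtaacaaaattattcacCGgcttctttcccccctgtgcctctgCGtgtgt
Cdx2: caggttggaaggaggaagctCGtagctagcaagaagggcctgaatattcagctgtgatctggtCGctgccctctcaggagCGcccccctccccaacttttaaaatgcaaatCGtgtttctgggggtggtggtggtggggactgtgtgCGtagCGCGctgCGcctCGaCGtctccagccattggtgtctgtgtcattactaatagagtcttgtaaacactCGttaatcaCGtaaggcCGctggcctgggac
Hoxd8: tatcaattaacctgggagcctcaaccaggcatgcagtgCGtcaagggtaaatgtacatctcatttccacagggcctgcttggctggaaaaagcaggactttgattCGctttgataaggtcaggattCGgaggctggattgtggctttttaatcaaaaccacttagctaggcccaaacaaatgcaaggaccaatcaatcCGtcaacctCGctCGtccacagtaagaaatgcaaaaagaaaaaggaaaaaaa
Hoxd13: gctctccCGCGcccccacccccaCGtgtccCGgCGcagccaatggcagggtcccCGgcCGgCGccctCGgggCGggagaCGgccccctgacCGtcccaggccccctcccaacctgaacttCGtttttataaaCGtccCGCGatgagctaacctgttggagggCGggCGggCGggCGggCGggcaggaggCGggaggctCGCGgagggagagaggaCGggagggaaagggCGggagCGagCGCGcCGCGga

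RefSeq promoters were found for 28 of the 48 members. Their median was 12 CG dinucleotides in 250 bases, against 6 over 27025 promoters of the same length. The 6 printed windows did not fall into kinds by the day of expression: Hoxd13 held 31 CGs and Cdx2 13, while Meis2 and Hoxb1 held 7 each and Hoxa2 and Hoxd8 held 6 each. The joint Pbx and Hox motif TGATNNAT was searched on both strands, with 1 start taken per gene. It was in 3 of the 28 member promoters and in 7.92% of all promoters. Hoxa2 and Hoxb1 were among those 3. Another RefSeq start of Hoxd11, left out of this count, also held the motif. The Meis motif TGACAG, also on both strands, was in 2 member promoters, Hoxa2 being 1 of them, and in 15.97% of all promoters. These matches describe letters in a window and not binding.

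During the first 4 days of differentiation Pbx2 and Pbx3 rose and Cdx1 fell in each of the 5 lines. Of the 7 tested posterior Hox genes, 7 were called lower on day 4 in C129 wild type, Hoxd9 and Hoxd11 among them by the filter on low values as given below, 4 in the gene trap, 2 in the double knockout and 1 each in Pali wild type and the Pali1 knockout. Hoxa10, Hoxb9 and Hoxb13 also reached 10 only in day 0 libraries, so the filter favoured their falls, and these counts are a description. A member counts as called where its adjusted p in limma's moderated test, Benjamini-Hochberg over the 15712 genes, was under 0.05. In Pali wild type 3 of the 23 tested members rose from day 0 to day 4 and 2 fell, beside 14.7% and 12.7% of all tested genes. In the Pali1 knockout 4 rose and 2 fell (15.2% and 15.3% of all genes), and in the double knockout 3 rose and 4 fell (13.6% and 13.9%). In C129 wild type 3 rose and 9 fell (14% and 15%), and in the gene trap 4 rose and 5 fell (15.7% and 15%). The 9 of 23 in C129 make 39.1% of the tested members, but Hoxd8, Hoxd9 and Hoxd11 passed the filter on low values only through the 2 C129 day 0 libraries, so that they had to differ, and the count is a description.

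From day 4 to day 8 the calls went in 1 direction. Only Meis1 rose in Pali wild type, where 1.95% of all genes rose and 0.853% fell. In the Pali1 knockout 5 of 23 members rose (8.7% of all genes rose and 5.78% fell), in the double knockout 6 (5.33% and 2.62%) and in C129 wild type 5 (16.2% and 14.6%). No member was called in the gene trap, where 4.68% of all genes rose and 3.32% fell. At an unadjusted p under 0.05, limma gave 2 members there, Meis1 and Pbx2, with no share of all genes taken beside them. The 6 in the double knockout include Hoxb2, which passed the filter on low values only through that day 8 group.

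**Figure D2:**
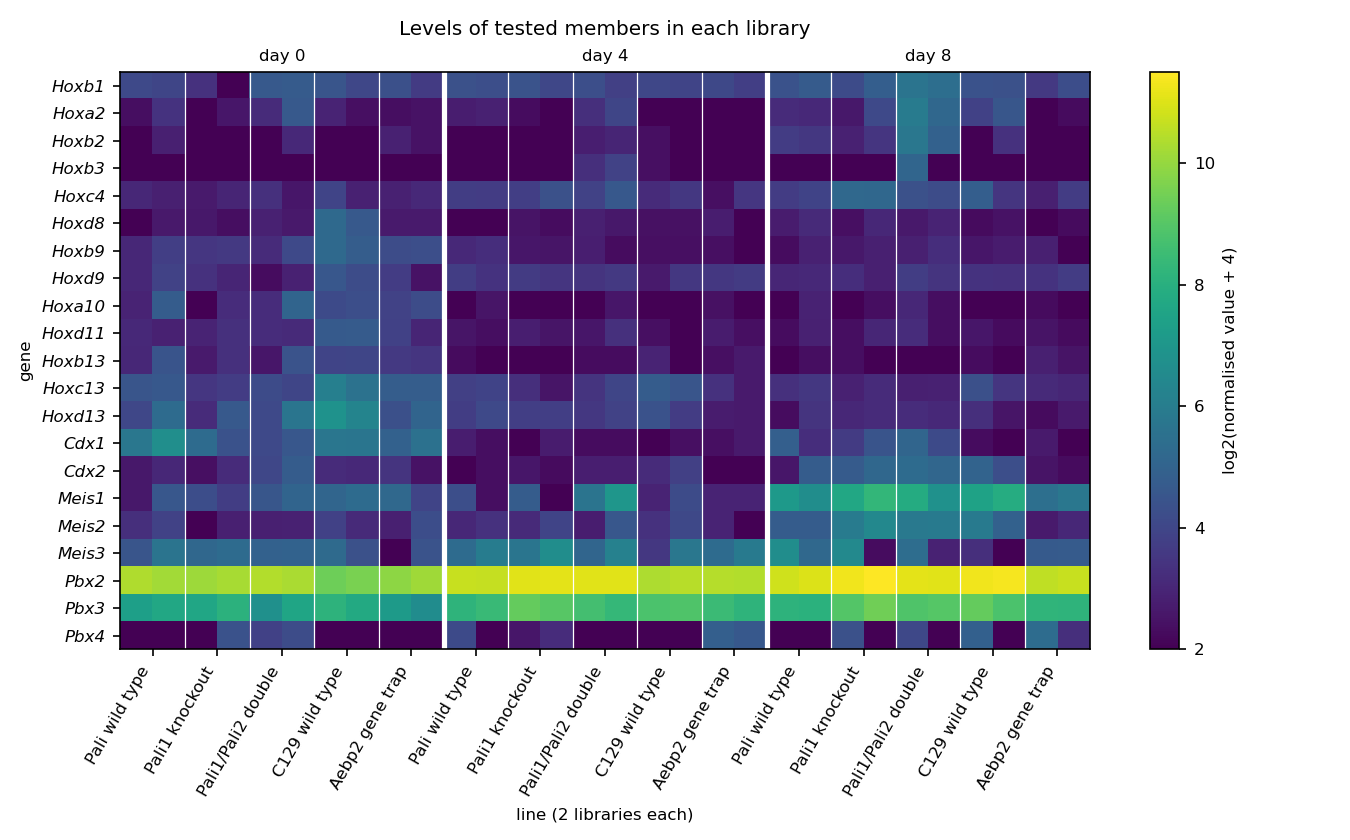
Levels of tested members (rows, in the order Hox, Cdx, Meis, Pbx) in the 30 libraries (columns, by day and line, 2 per line), as log2 of the normalised value plus 4. Pbx2 and Pbx3 brighten from day 0 to day 4 in all 5 lines, and Hoxd8, Hoxb9, Hoxd9, Hoxd11, Hoxc13 and Hoxd13 are brightest in the 2 C129 wild type libraries of day 0.

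Against the wild types, the members called on day 8 were all higher in the Pali mutants and all lower in the gene trap, and the trap had as many lower on day 0. In the Pali1 knockout no member was called by limma on day 0 (3.04% of all genes called higher, 1.75% lower). There, 5 members had an unadjusted p under 0.05, a count with no share of all genes taken beside it. In the same line 1 member was called higher on day 4 (1.07% higher, 1.6% lower) and 3 were called higher on day 8 (7.07% higher, 6.52% lower). In the double knockout 1 member was higher on day 0 (2.95% higher, 0.719% lower), 1 on day 4 (0.987% higher, 1.08% lower) and 3 on day 8 (4.13% higher, 3.08% lower), with none lower. In the gene trap 1 member was higher and 6 were lower on day 0 (5.23% and 7.78% of all genes), 1 was lower on day 4 (4.05% higher, 4.96% lower) and 6 were lower and none higher on day 8 (9.59% higher, 10.6% lower). The counts include Hoxb2 in the double knockout on day 8 and Hoxd8, Hoxd9 and Hoxd11 in the trap on day 0, which passed the filter only through a group of that comparison. The median log2 fold change over the 23 tested members on day 8 was 0.08 in the Pali1 knockout, 0.54 in the double knockout and -0.42 in the gene trap. Over all tested genes these medians were 0.04, 0.03 and -0.01.

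**Figure D3:**
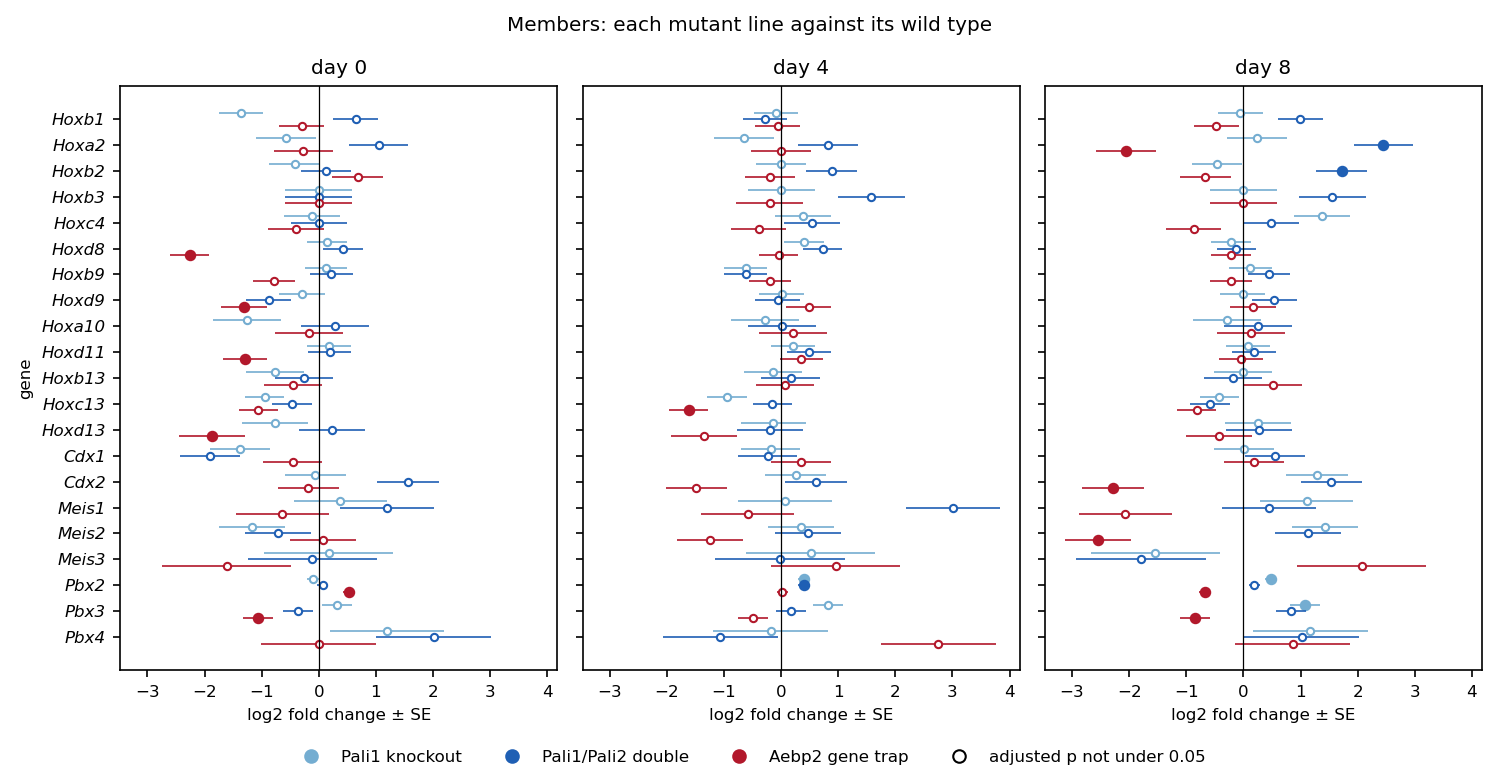
Log2 fold change ± SE (horizontal axis) of tested members (rows) in the Pali1 knockout, the double knockout and the Aebp2 gene trap against their wild types, on days 0, 4 and 8. Filled points passed an adjusted p of 0.05, and on day 8 the filled points lie right of 0 for both Pali mutants and left of 0 for the gene trap.

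Pbx genes encode DNA-binding partners of Hox proteins. Pbx2 stood at 1322 and 1163 in Pali wild type day 0 and at 1658 and 1624 on day 4, and in C129 wild type it went from 668 and 766 to 1273 and 1439.8. Pbx3 went from 162 and 206 to 289 and 343 in Pali wild type and from 280.1 and 214 to 440.5 and 469 in C129 wild type. In these 4 comparisons the day 4 libraries lay above the day 0 libraries. Both genes rose to day 4 in all 5 lines, Pbx2 by 0.40 to 0.92 and Pbx3 by 0.77 to 1.44 on the log2 scale. The Pbx2 rise was lost without Pali wild type day 0 replicate 2 (adjusted p = 0.0872) and without gene trap day 0 replicate 1 (adjusted p = 0.083). Pbx3 lost its call in Pali wild type without day 0 replicate 1 (adjusted p = 0.225), day 4 replicate 1 (0.0668) or day 4 replicate 2 (0.182). In C129 it lost it without day 0 replicate 2 (0.14), day 4 replicate 1 (0.0532) or day 4 replicate 2 (0.0866).

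From day 4 to day 8 Pbx2 rose further in C129 wild type, to 2493 and 2663, by 0.93 ± 0.10 (adjusted p = 4.11e-06), without losing the call to any library. Pbx2 in the Pali1 knockout rose by 0.31 ± 0.10 (adjusted p = 0.0481), a call lost without day 4 replicate 1 (0.169), day 4 replicate 2 (0.153) or day 8 replicate 2 (0.346).

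In stem cells Pbx2 and Pbx3 were called in the gene trap. Pbx3 stood at 139.9 and 95.3 in the trap and at 280.1 and 214 in C129 wild type, lower by 1.06 ± 0.26 (adjusted p = 0.0122), a call lost without C129 replicate 1 (0.143) or trap replicate 2 (0.15). Pbx2 went the other way, with 941 and 1126 in the trap against 668 and 766, higher by 0.52 ± 0.10 (adjusted p = 0.00252), lost without C129 replicate 1 (0.0549) or trap replicate 2 (0.0533). So within the trap stem cells these 2 Pbx genes did not move together.

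Of Pbx2 and Pbx3, only Pbx2 was called in the Pali mutants on day 4. Pbx3 stood at 612 and 515 in the Pali1 knockout, above 289 and 343 in the wild type without overlap, but was not called. In the double knockout Pbx3, at 399 and 319, overlapped the wild type. Pbx2 values were 2155 and 2192 in the Pali1 knockout and 2173 and 2166 in the double knockout, above 1658 and 1624 in the wild type, without overlap. The Pbx2 differences were 0.40 ± 0.10 in both (adjusted p = 0.0416 and 0.0498). Both calls sat at the threshold. Leaving out any of the 4 libraries ended each: adjusted p was 0.155 without wild type replicate 1, 0.16 without wild type replicate 2, 0.165 without Pali1 knockout replicate 1 and 0.21 without its replicate 2. For the double knockout it was 0.194, 0.161, 0.178 (without the replicate 1 whose description names another culture state) and 0.182 in the same order.

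On day 8 Pbx2 and Pbx3 were both higher in the Pali1 knockout and both lower in the gene trap. Pbx2 stood at 2540.1 and 2873 in the Pali1 knockout and 1809 and 2055 in the wild type, higher by 0.49 ± 0.10 (adjusted p = 0.00384), lost without wild type replicate 1 (0.0538) or knockout replicate 2 (0.0713). Pbx3 stood at 490.3 and 683 against 282 and 261, higher by 1.08 ± 0.26 (adjusted p = 0.0103), lost without wild type replicate 2 (0.072) or knockout replicate 2 (0.14). In the double knockout Pbx2 (0.19 ± 0.10, adjusted p = 0.299) and Pbx3 (0.84 ± 0.26, adjusted p = 0.0626) were not called.

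The gene trap on day 8 held 1554 and 1673 for Pbx2 against 2493 and 2663 in C129 wild type. This fall of 0.68 ± 0.10 (adjusted p = 0.000155) held without any single library. Pbx3 fell by 0.85 ± 0.26 (adjusted p = 0.0285), from 612 and 446 to 291 and 286, lost without C129 replicate 1 (0.208), trap replicate 1 (0.117) or trap replicate 2 (0.102). The C129 wild type was itself above Pali wild type on day 8 for both genes, by 0.42 (Pbx2) and 0.94 (Pbx3). These comparisons share the C129 libraries with the trap comparison.

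Pbx4, best known from the testis, was listed at 0 in 17 libraries and between 1.94 and 37.5 in the other 13. Its 2 libraries often disagreed, with 26.4 and 0 in C129 wild type day 8. The double knockout on day 0, with 10.1 and 14.4, and the gene trap on day 4 were among the exceptions. The trap held 25.4 and 20.7 on day 4 after 0 and 0 on day 0 (limma, adjusted p = 0.0464). That call was lost without any 1 of the 4 libraries.

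Meis genes, whose products join Pbx and Hox proteins on DNA, rose late. Meis1 stood at 15.4 and 1.09 in Pali wild type day 4 and at 132 and 97.5 on day 8. On day 8 it reached 202 and 308 in the Pali1 knockout, 224 and 109 in the double knockout, 175 and 229.6 in C129 wild type and 40.5 and 49.8 in the gene trap. The trap libraries were the lowest 2 of the 10. The rise from day 4 was 4.60 ± 0.82 in the Pali1 knockout (adjusted p = 0.00103) and 4.13 ± 0.82 in C129 wild type (adjusted p = 0.000911), and both calls held without any single library. The Pali wild type rise of 3.56 ± 0.82 (adjusted p = 0.0238) was lost without day 4 replicate 2 (0.246), day 8 replicate 1 (0.228) or day 8 replicate 2 (0.0541). Set against C129, the trap value of -2.06 ± 0.82 was not called (adjusted p = 0.0868). In the double knockout Meis1 held 46.9 on day 4 in replicate 1, described as another culture state, and 122 in replicate 2, both above every other day 4 library, though the difference from the wild type did not pass (3.01 ± 0.82, adjusted p = 0.0679).

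Meis2 was lowest in the gene trap on day 8. It stood at 2.46 and 4.22 in the trap, against 55.3 and 26.6 in C129 wild type, 23.3 and 23.1 in Pali wild type, 58.3 and 82.5 in the Pali1 knockout and 53.9 and 56.7 in the double knockout. The trap values were near the level of a few reads and overlapped no other day 8 group. The difference from C129 was -2.55 ± 0.58 (adjusted p = 0.00399) and just missed the threshold without C129 replicate 1 (0.0505). In the Pali mutants Meis2 was above the wild type without overlap but not called, by 1.43 ± 0.58 (adjusted p = 0.114) in the Pali1 knockout and 1.12 ± 0.58 (adjusted p = 0.282) in the double knockout. Meis2 rose from day 4 to day 8 in the Pali1 knockout, the double knockout and C129 wild type, by 1.70 to 2.65. Each of these 3 calls was lost without some library: without day 4 replicate 1 (0.0603) or day 8 replicate 2 (0.0619) in the Pali1 knockout, without day 4 replicate 1 (1.30 in place of 2.22, adjusted p = 0.332), day 8 replicate 1 (0.119) or day 8 replicate 2 (0.105) in the double knockout, and without day 4 replicate 1 (0.21) or day 8 replicate 1 (0.216) in C129. Meis3 ranged from 0 to 97.7 with wide spread between duplicates, such as 84.5 and 1.00 in the Pali1 knockout on day 8, and passed in no comparison.

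**Figure D4:**
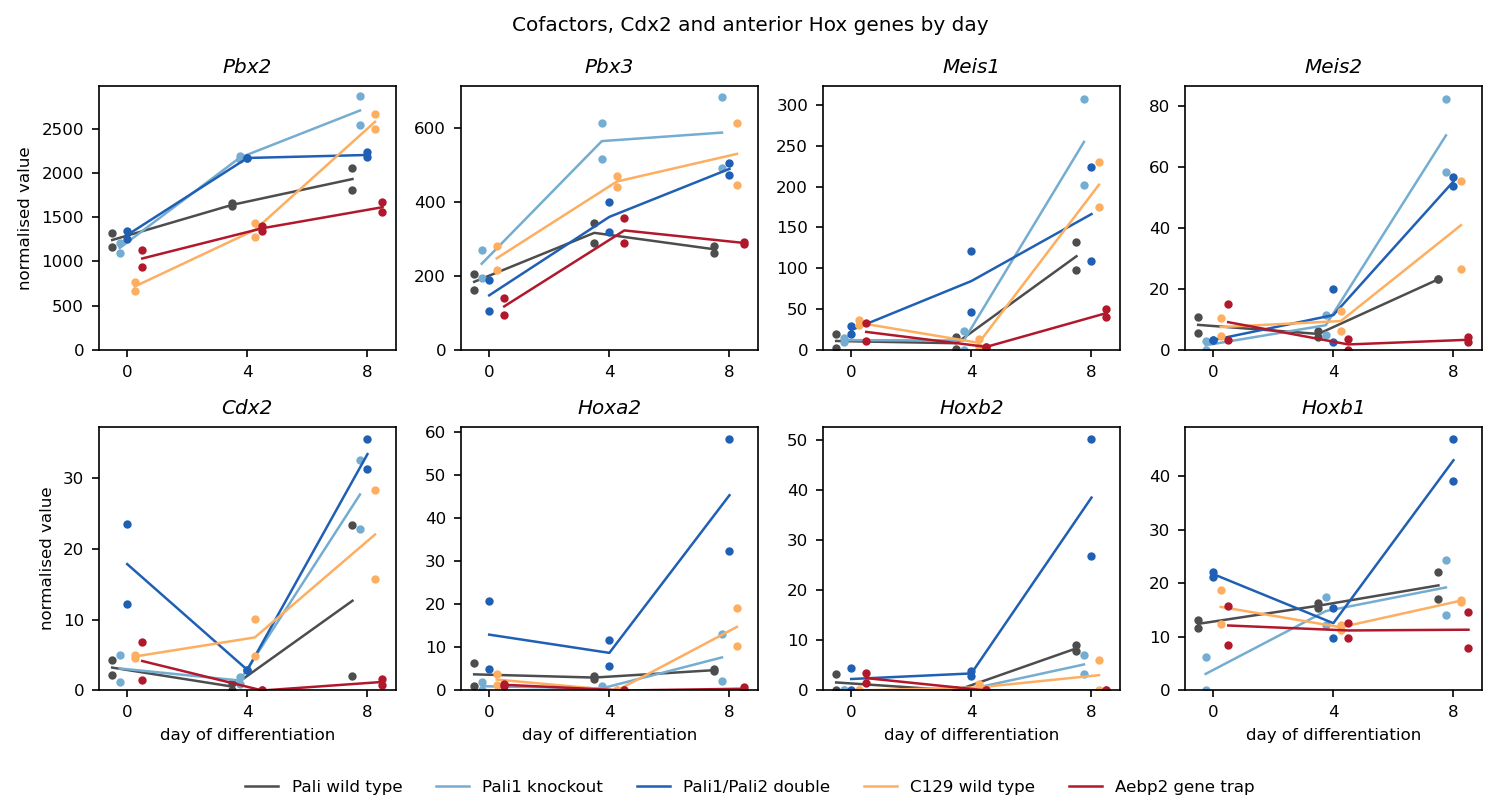
Normalised values (vertical axis, linear from 0) of Pbx2, Pbx3, Meis1, Meis2, Cdx2, Hoxa2, Hoxb2 and Hoxb1 on days 0, 4 and 8, with 1 point per library and a line through the mean of 2. The gene trap points are the lowest on day 8 for Pbx2, Meis1, Meis2, Cdx2 and Hoxa2, and the double knockout points are the highest for Hoxa2, Hoxb2 and Hoxb1.

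Cdx genes, activators of Hox genes in the caudal embryo, were low and moved in turn. In Pali wild type Cdx1 fell from 50.4 and 100.4 on day 0 to 2.72 and 1.10 on day 4, by 3.69 ± 0.52 (adjusted p = 4.19e-05), and in C129 from 49.1 and 48.2 to 0 and 1.26, by 3.52 ± 0.52 (adjusted p = 6.14e-05). The log2 change was between -3.69 and -2.02 over the 5 lines, lower and called in each, and the call was lost only in the double knockout, without its day 0 replicate 2 (adjusted p = 0.0584). By day 8 Cdx1 stood at 25.1 and 5.56 in Pali wild type, above its day 4 libraries but not called. On day 0 the double knockout held 13.2 and 19.6. Called rises to day 8 were in the Pali1 knockout, to 8.70 and 18.3, and in the double knockout, to 30.3 and 13.4. These rises of 1.71 ± 0.52 (adjusted p = 0.0341) and 2.30 ± 0.52 (adjusted p = 0.00999) were lost, the first without day 4 replicate 1 (0.219) or 2 (0.0608) or day 8 replicate 2 (0.272), the second without day 4 replicate 1 (0.067) or day 8 replicate 1 (0.147). In C129 day 8 Cdx1 was 0.944 and 0, below the 25.1 and 5.56 of Pali wild type by 1.91 ± 0.52 (adjusted p = 0.0164), lost without Pali wild type replicate 1 (0.244) or C129 replicate 2 (0.112).

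Cdx2, a caudal and trophoblast regulator, was the Cdx gene that separated the gene trap on day 8. It stood at 1.60 and 0.819 in the trap and at 28.3 and 15.7 in C129 wild type. The difference was -2.28 ± 0.54 (adjusted p = 0.00512) and was lost without C129 replicate 1 (0.0536). The Pali mutants held 22.8 and 32.5 (Pali1 knockout) and 35.5 and 31.3 (double knockout), beside 2.01 and 23.3 in the wild type, whose libraries lay far apart, and neither was called (adjusted p = 0.126 and 0.094). In the Pali1 knockout the rise of Cdx2 from day 4, by 2.54 ± 0.54 (adjusted p = 0.0039), was lost without day 8 replicate 2 (0.053). In the double knockout Cdx2 began at 12.2 and 23.5 on day 0, fell by 1.61 ± 0.54 to 2.88 and 2.93 on day 4 (adjusted p = 0.0322) and rose by 2.43 ± 0.54 to day 8 (adjusted p = 0.00838). The fall was lost without day 0 replicate 2 (0.209), day 4 replicate 1 (0.108) or day 4 replicate 2 (0.111), and the rise without day 4 replicate 1 (0.0599) or day 8 replicate 1 (0.0705). Cdx4 was listed at 0 in 17 libraries, reached at most 3.92 and was not tested.

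Among anterior Hox genes the double knockout stood out on day 8. Hoxa2, which sets second branchial arch identity, had 58.5 and 32.4 there, against 5.02 and 4.44 in the wild type, 2.17 and 13.2 in the Pali1 knockout, 10.4 and 19.2 in C129 wild type and 0 and 0.819 in the gene trap. The double knockout overlapped no other group. It exceeded the wild type by 2.45 ± 0.52 (adjusted p = 0.00925), a call lost without wild type replicate 2 (0.0699) or double knockout replicate 1 (0.105). It exceeded the Pali1 knockout by 2.21 ± 0.52 (adjusted p = 0.0413), lost without Pali1 knockout replicate 1 (0.384), double knockout replicate 1 (0.3) or double knockout replicate 2 (0.0829). Hoxa2 lies in the chromosome 6 block, where the median of 94 neighbouring genes was 0.83 higher in the double than in the Pali1 knockout on that day and 0.20 higher than in the wild type.

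Hoxb2, its paralogue on chromosome 11, was also highest in the double knockout. It stood at 50.1 and 26.8 in the double knockout, 9.03 and 7.78 in the wild type and 3.26 and 7.11 in the Pali1 knockout, with 0 and 6.11 in C129 and 0 and 0 in the trap. Hoxb2 passed the filter on low values only through these 2 double knockout libraries, so it had to be high there. Its log2 differences of 1.72 from the wild type and 2.18 from the Pali1 knockout are therefore given as a description, with no test. The median log2 difference of genes within 10 Mb of HoxB was -0.01 in the double knockout against its wild type on that day.

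Hoxa2 rose in the double knockout from day 4 to day 8, from 5.77 and 11.7, by 1.94 ± 0.52 (adjusted p = 0.0275), a call lost without day 4 replicate 1 (0.218) or day 8 replicate 1 (0.236). Hoxb2 stood at 2.88 and 3.91 there on day 4. Hoxb1, a hindbrain gene and an early target of retinoic acid, was present in nearly every library, at 47.0 and 39.1 in the double knockout on day 8 and at most 24.4 elsewhere on that day. Hoxb1 was not called higher there than in the wild type or, by 1.05 ± 0.39 (adjusted p = 0.259), than in the Pali1 knockout. Its rise in the double knockout from 15.4 and 9.77 on day 4, by 1.52 ± 0.39 (adjusted p = 0.0222), was lost without any 1 of the 4 libraries (adjusted p from 0.0541 to 0.156). In the Pali1 knockout Hoxb1 started at 6.20 and 0 and rose to 17.4 and 12.3 on day 4, by 1.55 ± 0.39 (adjusted p = 0.00553), lost without day 0 replicate 2 (0.136) or day 4 replicate 1 (0.0605). On day 0 it was 2.01 ± 0.39 higher in the double than in the Pali1 knockout (adjusted p = 0.00952), lost without Pali1 knockout replicate 2 (0.0912) or double knockout replicate 2 (0.0838).

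Hoxa2 ran the other way in the Aebp2 comparison. In C129 wild type it rose from 0 and 0 on day 4 to 10.4 and 19.2 on day 8, by 2.19 ± 0.52 (adjusted p = 0.00354), lost without day 8 replicate 2 (0.0535). The gene trap held 0 and 0 on day 4 and 0 and 0.819 on day 8. On day 8 it lay below C129 by 2.06 ± 0.52 (adjusted p = 0.00834), lost without C129 replicate 2 (0.0928) or trap replicate 1 (0.0731). The genes around HoxA had a median of 0.25 in the opposite direction, higher in the trap.

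Hoxc4 peaked in the Pali1 knockout on day 8, at 32.6 and 32.5, beside 9.03 and 11.1 in the wild type, 16.7 and 14.5 in the double knockout, 24.6 and 6.98 in C129 and 3.19 and 9.01 in the trap. The Pali1 knockout overlapped no other group, but its difference from the wild type did not pass (1.38 ± 0.49, adjusted p = 0.0714). Hoxb3 was above 0 in 4 libraries, with 30.5 in replicate 1 of the double knockout on day 8 and 0 in replicate 2, and was not called.

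Of the 7 tested posterior Hox genes, which pattern the trunk and limb ends late in normal development, 5 were highest in undifferentiated C129 wild type cells (Hoxd13, Hoxc13, Hoxd11, Hoxb9 and Hoxd9). Hoxa10 and Hoxb13 reached their highest values in single day 0 libraries of the Pali lines, 29.6 in double knockout replicate 2 and 18.2 in Pali wild type replicate 2. Hoxd13 stood at 109 and 73.6 in C129 day 0 and was the one Hox gene of the 38 to pass 100 in any library. Other day 0 values were 12.1 and 36.3 in Pali wild type, 4.96 and 20.9 in the Pali1 knockout, 13.2 and 48.3 in the double knockout and 15.8 and 29.2 in the gene trap. C129 overlapped none of them. By day 4 C129 held 17.2 and 8.80, lower by 2.51 ± 0.58 (adjusted p = 0.00287), a call that held without any single library. Hoxb9 fell in the same step from 34.0 and 24.1 to 1.23 and 1.26, by 2.64 ± 0.37 (adjusted p = 3.78e-05), and this call also held without any single library. However, Hoxb9, Hoxa10 and Hoxb13 reached 10 only in day 0 libraries, so the filter favoured their falls to day 4. Those falls are a description, and their p-values are no support for them. Hoxd11 went from 21.7 and 22.5 to 1.25 and 0, Hoxd9 from 20.1 and 14.3 to 2.46 and 7.54, and Hoxd8, the 1 central Hox gene tested, from 34.3 and 21.3 to 1.34 and 1.37. These 3 genes passed the filter only through C129 day 0, so they had to be high there, and their falls and differences from that group are a description with no test.

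Further falls from day 0 to day 4 in C129 were less steady. Hoxc13 went from 65.4 and 44.3 to 23.4 and 18.9, by 1.21 ± 0.34 (adjusted p = 0.0126), lost without day 0 replicate 1 (0.133) or day 4 replicate 2 (0.0885). Hoxa10 fell by 2.20 ± 0.59 (adjusted p = 0.00894), lost without day 0 replicate 2 (0.0506). Hoxb13 fell by 1.48 ± 0.51 (adjusted p = 0.0354), lost without day 0 replicate 1 (0.116), day 0 replicate 2 (0.115) or day 4 replicate 2 (0.275). The filter favoured these falls of Hoxa10 and Hoxb13, as given above.

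**Figure D5:**
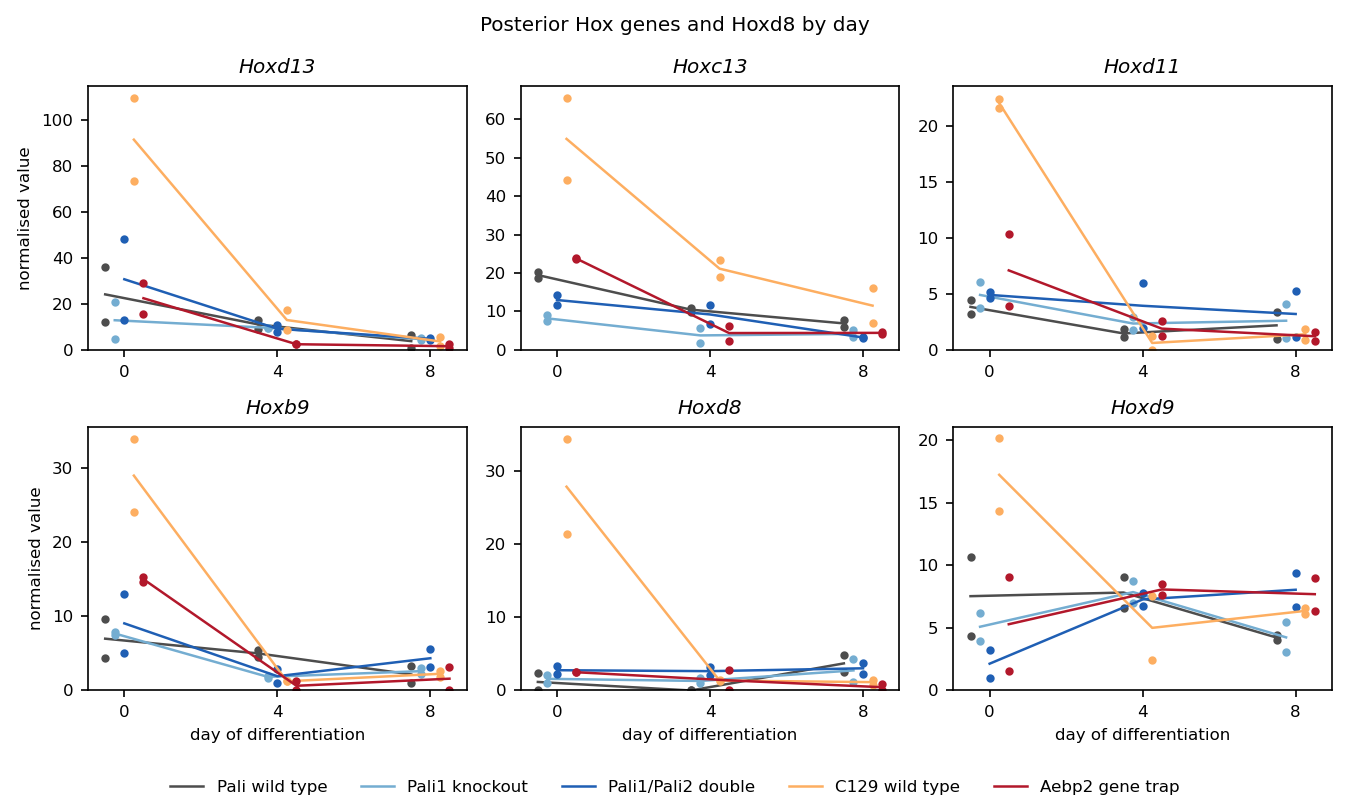
Normalised values (vertical axis, linear from 0) of Hoxd13, Hoxc13, Hoxd11, Hoxb9, Hoxd8 and Hoxd9 on days 0, 4 and 8, with 1 point per library and a line through the mean of 2. The C129 wild type points of day 0 lie above all others in each panel and have fallen by day 4, when the C129 points still lie above all others for Hoxc13.

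The gene trap line showed part of the same fall. Hoxb9 went from 14.7 and 15.4 to 1.27 and 0, a log2 change of -2.05 ± 0.37 (adjusted p = 0.000362), and Hoxc13 from 23.8 and 23.8 to 6.35 and 2.44, a change of -1.77 ± 0.34 (adjusted p = 0.000706). Both calls held without any single library, though the filter favoured falls of Hoxb9 and Hoxa10 in this step. Hoxd13 fell by 1.98 ± 0.58 (adjusted p = 0.0136), lost without day 0 replicate 2 (0.117), day 4 replicate 1 (0.0569) or day 4 replicate 2 (0.0579), and Hoxa10 by 1.82 ± 0.59 (adjusted p = 0.0266), lost without any 1 of the 4 libraries (adjusted p from 0.06 to 0.132). In the Pali lines the posterior calls were few, and all were of Hoxa10, Hoxb9 or Hoxb13, whose falls the filter favoured. Hoxb13 fell in the wild type by 1.62 ± 0.51 (adjusted p = 0.0239), lost without day 0 replicate 2 (0.297), day 4 replicate 1 (0.0633) or day 4 replicate 2 (0.116). Hoxb9 fell in the Pali1 knockout by 1.00 ± 0.37 (adjusted p = 0.0491; 0.132 to 0.16 without any 1 of the 4 libraries). In the double knockout it fell by 1.09 ± 0.37 (adjusted p = 0.0361), lost without day 0 replicate 2 (0.333) or day 4 replicate 2 (0.219). Hoxa10 fell there by 1.84 ± 0.59 (adjusted p = 0.0272), with -2.78 when day 0 replicate 1 was left out, and the call was lost without day 0 replicate 2 (0.354), day 4 replicate 1 (0.158) or day 4 replicate 2 (0.0526).

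Of the 7 tested posterior Hox genes, 3 were called lower in gene trap than in C129 stem cells, and 2 of these, Hoxd9 and Hoxd11, are among the genes fixed by the filter. Hoxd13 was lower by 1.87 ± 0.58 (adjusted p = 0.0397), a call lost without C129 replicate 1 (0.247) or 2 (0.0718), without trap replicate 1 (0.211) or 2 (0.0696), and with a pseudocount of 1 (0.101). Hoxd11 stood at 10.3 and 3.90 in the trap, Hoxd9 at 9.05 and 1.54 and the central gene Hoxd8 at 2.47 and 2.52, all below C129 without overlap. Hoxc13, at 23.8 and 23.8 against 65.4 and 44.3, missed the threshold on day 0 (-1.06 ± 0.34, adjusted p = 0.0511) and passed on day 4, with 6.35 and 2.44 against 23.4 and 18.9 (-1.62 ± 0.34, adjusted p = 0.00706). That call was lost without C129 replicate 1 (0.0814) or trap replicate 2 (0.0719).

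The 2 wild types were compared as well. On day 0, 6 members were higher in C129 than in Pali wild type and 1 was lower, beside 12% and 9.06% of all genes. The higher ones included Hoxd13 (1.88 ± 0.58), Hoxb9 (1.61 ± 0.37) and Hoxc13 (1.30 ± 0.34), with Hoxd8 and Hoxd11, which the filter fixed, and the lower one was Pbx2 (-0.79 ± 0.10). Adjusted p was 0.026 for Hoxd13, 0.00439 for Hoxb9 and 0.011 for Hoxc13. These 3 calls were lost without Pali wild type replicate 1 (0.271, 0.0719 and 0.0682) or C129 replicate 1 (0.178, 0.0596 and 0.133). On day 4 no member was called by limma (8.35% and 7.57% of all genes called), and 3 had an unadjusted p under 0.05, with no share of all genes taken beside them. On day 8, 3 were called higher and 1 lower (8.86% and 8.49%), among them Pbx2, Pbx3 and the lower Cdx1 named above. The day 8 calls of Pbx2 and Pbx3 were lost without Pali wild type replicate 1 for Pbx2 (0.106) and Pbx3 (0.0664), Pali wild type replicate 2 for Pbx3 (0.101), C129 replicate 1 for Pbx3 (0.151), and C129 replicate 2 for Pbx2 (0.0827). For Hoxd13, Hoxc13, Hoxd11, Hoxb9 and Hoxd9 the trap was thus compared with a wild type whose day 0 level was the highest of the 5 lines. The trap values themselves lay among those of the Pali lines for Hoxd8, Hoxd9 and Hoxd13.

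The remaining 25 members stayed under the filter. Of the 38 Hox genes, 22 never reached 10 and 37 never reached 100. The highest value among untested members was 15.03, for Hoxa5 in replicate 2 of the double knockout on day 0. Hoxc6 was listed at 0 in 28 libraries, Hoxb8 in 27 and Hoxb6 and Hoxc11 in 26 each. Hoxc8 was the opposite, above 0 in 29 of 30 libraries but never past 9.97. All 9 central Hox genes other than Hoxd8 were among the untested. In each library between 8 and 26 of the 38 Hox genes were listed at 0, with the lowest number in 2 libraries, C129 day 0 replicate 2 and double knockout day 8 replicate 1, and the highest in gene trap day 4 replicate 2.

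The 2 knockout lines were compared directly. On day 0, 2 members differed between the double and the Pali1 knockout (3.07% of all genes in either direction), Hoxb1 among them. On day 4 none did by limma (1.38% of all genes called), and on day 8, 2 did (1.37%), Hoxa2 and, fixed by the filter, Hoxb2. All 4 called were higher in the double knockout. At an unadjusted p under 0.05, limma gave 5 members on day 4, with no share of all genes taken beside them.

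Whether the Aebp2 effect differed from the Pali effects was tested as a difference of differences. On day 8 it was lower than the double knockout effect for 7 members (24% of all genes differed in either direction), among them Cdx2, Hoxa2, Meis2, Pbx2 and Pbx3, with Hoxb2 fixed by the filter. Against the Pali1 effect it was lower for 8 (28.5% of all genes), with Hoxc4 and Meis1 in the list and Hoxb2 out of it. On day 0, 3 and 4 members differed (12.8% and 15.1% of all genes), both counts with Hoxd8, fixed by the filter. On day 4 limma called no member against the double knockout effect and 1, Pbx3, against the Pali1 effect (6.07% and 8.17% of all genes called). Against the double knockout effect 6 members had an unadjusted p under 0.05, with no share of all genes taken beside them. These contrasts join lines of 2 parents, so that line background and the mutated gene cannot be told apart.

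Genes of the caudal axis were counted on day 8, not all of them known to act upstream of the members. In the Pali1 knockout 7.07% of all genes were higher and 6.52% lower on that day. The shares were 4.13% and 3.08% in the double knockout and 9.59% and 10.6% in the gene trap. Of 17 tested genes of the caudal axis and Cdx upstream signals, 8 were higher and 1 lower in the Pali1 knockout, 6 higher and none lower in the double knockout, and 1 higher and 10 lower in the gene trap. The median log2 fold change was 1.36, 0.62 and -2.16. Wnt3a, a Wnt ligand of the tail bud that acts on Cdx genes, averaged 278 in the Pali1 knockout and 23.5 in Pali wild type (3.64 ± 0.60, adjusted p = 0.000601), and 5.24 in the gene trap and 203 in C129 (-4.48 ± 0.60, adjusted p = 4.93e-05). Wnt3 rose in both Pali mutants, by 3.12 ± 0.48 and 2.58 ± 0.48 (adjusted p = 0.000366 and 0.00403). Evx1, a homeobox gene at the 5′ end of HoxA, was at 0 in the day 8 libraries of Pali wild type and of the trap, and stood at 27.2 and 8.13 in the Pali1 knockout, 38.6 and 111 in the double knockout and 11.3 and 21.8 in C129.

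Retinoic acid activates anterior Hox genes. Of 19 tested genes of its pathway on day 8, 5 were higher and 1 lower in the Pali1 knockout, 4 higher and none lower in the double knockout, and 1 higher and 12 lower in the gene trap, with medians of 0.44, 0.77 and -1.34. Cyp26b1, which degrades retinoic acid, averaged 287 in the double knockout and 9.89 in its wild type (4.41 ± 0.31, adjusted p = 5.07e-07). Crabp2, a carrier of retinoic acid, averaged 377 in the gene trap and 3066 in C129 (-3.07 ± 0.38, adjusted p = 2.49e-05). Of 6 tested hindbrain regulators of Hox genes, 4 were lower in the gene trap on day 8, led by Nr6a1 (-1.22 ± 0.28, adjusted p = 0.00445), and none was called in either Pali mutant. Of 5 tested other homeobox genes of the TALE and ParaHox classes, 1 was called on day 8, Tgif1 in the Pali1 knockout (-0.40 ± 0.12, adjusted p = 0.0385). No Hox antisense or noncoding RNA could be tested, since none of the 8 in the table passed the filter.

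Markers of cell state moved with these day 8 results as well. Each of 10 pluripotency markers averaged above 10 in all 5 day 8 groups. Their summed level on day 8 was 55242 to 65988 in Pali wild type, 25665 to 30917 in the Pali1 knockout, 35345 to 37548 in the double knockout, 14443 to 21407 in C129 wild type and 58994 to 64790 in the gene trap. Of the 10, 7 were lower in the Pali1 knockout, 6 in the double knockout, and 9 higher in the trap. Of 10 neural markers 5 and 6 were higher in the Pali mutants and 6 lower in the trap. Their summed level was 4966 to 7204 in Pali wild type, 13229 to 16561 and 13324 to 15492 in the Pali mutants, 9127 to 9369 in C129 and 4290 to 5870 in the trap, where Neurog2 was under 10.

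Mesoderm and endoderm markers were read in the same way. Of 9 tested mesoderm markers, 2 were higher and 1 lower in the Pali1 knockout, 1 was higher in the double knockout and 3 were lower in the trap. T, Meox1 and Foxf1 were under 10 in the trap on day 8. So were Meox1 and Foxf1 in the Pali1 knockout, T and Meox1 in Pali wild type, and Meox1 in C129 wild type. The summed level on day 8 of all 10 listed mesoderm markers, tested or not, was 252 to 428 in Pali wild type, 888 to 1186 and 588 to 1278 in the Pali mutants, 854 to 1246 in C129 and 194 to 204 in the trap. Of 5 definitive endoderm markers, 3 were higher in each Pali mutant and 3 lower in the trap. Their summed level was 144 to 153 in Pali wild type, 1317 to 2032 and 723 to 1710.2 in the Pali mutants, 678 to 767 in C129 and 29.6 to 62.3 in the trap. The summed level of 10 extraembryonic endoderm markers was 238 in replicate 1 and 13277 in replicate 2 of Pali wild type on day 8, so that these duplicates stand apart. On day 4 the same sum was 223 and 5015 in replicates 1 and 2 of that line. In C129 wild type on day 8, the baseline of the trap comparison, 6 fibroblast markers summed to 971 in replicate 1 and 3216 in replicate 2. Without replicate 2 of Pali wild type on day 8, Hoxa2 in the double knockout and Pbx3 in the Pali1 knockout lost their calls, and calls lost without either C129 library stand beside each gene above. The part of cell state in the day 8 differences of members was not tested. In RNA from a whole embryoid body, fewer cells of a type and less RNA per cell cannot be told apart.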

How the data were processed

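Stranded libraries were made from ribosome-depleted total RNA, per the labels' protocols. The deposited table holds the authors' normalised counts, a signal per gene that is not whole and not scaled to length. Named without roles in the submitters' processing notes are mm10, DESeq2, HISAT2 2.0.5 and kallisto 0.43.1. The step from reads to values is not given there.

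Values were tested as log2(value + 4) with limma 3.58.1 in R 4.3.3: 1 fit over 30 libraries and 15 groups, 15 residual degrees of freedom, with a trended and robust variance prior. Genes needed a value of 10 in 2 libraries. Fold changes are on the log2(value + 4) scale, which understates changes of low genes. Adjusted p is Benjamini-Hochberg within each of 31 contrasts over 15712 genes, and errors are SE. Because the values are not whole counts, no count model was used. Between 81.7% and 86.1% of low values per library were whole multiples of 1 read within 0.001 of it, which gave the depth estimates but no read table. The scripts were tested on simulated data.

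The members and gene lists were chosen with earlier results of these data known. Counts cover all tested members, but some members and markers are not reported here by name. Values in every library were given for members called in a mutant comparison and for the highest of each member group on day 8. From the lists, up to 3 called genes per direction and comparison were taken by lowest adjusted p. Neighbouring genes and 10 Mb bins used GENCODE M21 positions, for 15433 of the tested genes, and were chosen after seeing the data. Promoters came from RefSeq (GRCm38.p6). Alternatives were other pseudocounts, filters and scalings, a replicate block, fits within 1 parent and leaving out each library.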

Additional observations from a re-analysis of the deposited data

Results flagged for a closer look

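The values below are differences of differences, the Aebp2 gene trap effect against its wild type minus a Pali effect against its own, on the log2 scale. Each passed limma's test of the difference itself at an adjusted p under 0.05. Hoxd8 passed the filter on low values only through C129 day 0 and Hoxb2 only through the double knockout on day 8, so their values below had to differ and are a description, not a test. The lines have 2 parents, so that the mutated gene and the line background cannot be told apart.

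On day 8 the Aebp2 effect minus the double knockout effect was -4.51 for Hoxa2, -3.82 for Cdx2, -3.67 for Meis2, -2.39 for Hoxb2, -1.69 for Pbx3 and -0.87 for Pbx2. Apart from Hoxb2, these calls held without any single library.

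Against the Pali1 knockout effect on day 8 the values were -3.98 for Meis2, -3.57 for Cdx2, -3.17 for Meis1, -2.30 for Hoxa2, -2.25 for Hoxc4, -1.93 for Pbx3 and -1.16 for Pbx2. Meis1 lost its call without any 1 of the 8 libraries (adjusted p from 0.066 to 0.14). Hoxa2 lost it without Pali wild type replicate 1 (0.0523) or 2 (0.0641), Pali1 knockout replicate 2 (0.153), C129 replicate 2 (0.102) or trap replicate 1 (0.0802). Hoxc4 lost it without Pali wild type replicate 1 (0.0589), Pali1 knockout replicate 2 (0.052), C129 replicate 1 (0.114) or trap replicate 1 (0.103). For Hoxa2 the median of genes within 10 Mb of HoxA in this contrast was 0.61, in the opposite direction, and its part was not tested.

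On day 0 the Aebp2 effect minus the double knockout effect was -2.69 for Hoxd8 and 0.46 for Pbx2. For Pbx2 the call ended without replicate 1 of Pali wild type (adjusted p = 0.181), double knockout replicate 1 (0.0629) or 2 (0.139), C129 replicate 1 (0.194) or trap replicate 2 (0.207). Against the Pali1 effect it was -2.41 for Hoxd8, -1.38 for Pbx3 and 0.63 for Pbx2. Pbx3 was lost without Pali wild type replicate 1 (0.0706), Pali1 knockout replicate 2 (0.0817), C129 replicate 1 (0.0819) or trap replicate 2 (0.0862). On day 4 Pbx3 differed by -1.32 from the Pali1 effect, a call lost without any 1 of the 8 libraries (adjusted p from 0.0523 to 0.117).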

How the results depend on the processing

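The comparisons gave 117 called member results, those fixed by the filter included. Of these, 50 were called under every alternative that tested their gene, and 86 under all such alternatives other than leaving out a library. None reversed in sign. The filter at a mean of 50 dropped most members, so it could not end their calls, and these counts overstate how steady they were. Counts of called members that moved are given by setting, with the reported count in brackets. With a pseudocount of 1 the count was 1 [0] for the Pali1 knockout on day 0, 4 [7] for the gene trap on day 0, 0 [1] for the double knockout on day 4, 2 [1] for the trap on day 4, 0 [1] for Pali wild type and 3 [6] for the double knockout from day 4 to day 8, 1 [0] between wild types on day 4, 1 [0] for the trap against the double effect on day 4 and 0 [2] between the knockouts on day 8. With a pseudocount of 16 it was 2 [1] for the double knockout on days 0 and 4, 5 [3] for the Pali1 knockout on day 8, 1 [0] for the trap from day 4 to day 8 and 5 [3] against the double effect on day 0. With no filter, which tests all 48 members, it was 0 [1] for both Pali mutants on day 4, 2 [1] for the trap on day 4, 2 [1] for Pali wild type from day 4 to day 8, 20 [12] for C129 to day 4, and 14 [7] and 1 [0] between wild types on days 0 and 4. A filter at a mean of 50, which leaves few members, gave 3 [7], 0 [1] and 3 [6] for the trap on days 0, 4 and 8 and 1 [3] for the double knockout on day 8. It gave 3 [5], 3 [6], 3 [7], 3 [12] and 3 [9] for the steps to day 4 of the Pali wild type, Pali1, double knockout, C129 and trap lines, and 2 [5], 0 [6] and 3 [5] to day 8 for Pali1, double knockout and C129. It also gave 1 [2] and 0 [2] between knockouts on days 0 and 8, 2 [7] between wild types on day 0, and 3 [7] and 4 [8] against the double and Pali1 effects on day 8. TMM rescaling gave 0 [1] and upper-quartile rescaling 0 [1] for the double knockout on day 4, and upper-quartile rescaling 2 [1] on day 0. Rescaling moved the median of all genes by at most 0.0558 (TMM) and 0.0969 (upper quartile). Libraries of the same parent only gave 3 [5] and 0 [1] for the Pali wild type steps, 1 [2] between knockouts on day 8, 4 [7] and 0 [1] for the trap on days 0 and 4, and 1 [0] for its step to day 8. With a replicate block the count for the Pali1 knockout on day 0 was 1 [0] and no other count moved beyond 1.5 times, but the numbers pair the samples by number alone, since same-numbered deviations correlated at -0.062 to 0.109. Except where an alternative tests fewer or more genes or fewer samples, the cause was not tested.

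Leaving out 1 library at a time gave 0 to 1, 0 to 0 and 0 to 2 calls for the Pali1 knockout on days 0, 4 and 8, 1 to 1, 0 to 0 and 0 to 3 for the double knockout, and 2 to 6, 0 to 1 and 2 to 6 for the trap. For steps to day 4 it gave 3 to 5 (Pali wild type), 4 to 5 (Pali1), 3 to 9 (double), 9 to 10 (C129) and 6 to 7 (trap), and to day 8 0 to 1, 1 to 7, 1 to 5, 4 to 5 and 0 to 0. Between wild types it gave 4 to 7, 0 to 0 and 1 to 3, between knockouts 0 to 3, 0 to 1 and 0 to 2, against the double effect 2 to 4, 0 to 1 and 6 to 8, and against the Pali1 effect 3 to 5, 0 to 0 and 5 to 8. A group left with 1 library was assumed to vary like the others.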
